A study of Rattus norvegicus with 30 samples.

Results

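The genes described are the 2 corticosteroid receptors and the 2 enzymes that set the local supply of active glucocorticoid: Nr3c1 (glucocorticoid receptor), Nr3c2 (mineralocorticoid receptor), Hsd11b1 and Hsd11b2 (11β-hydroxysteroid dehydrogenases). They were chosen by symbol in the gene tables of a lung RNA-seq study, and all 4 symbols were found, in 5 of 22914 rows, because Nr3c1 stands in 2 rows. All 5 rows passed the filter on low counts, which left 15934 rows for testing. Per the files, Nr3c1 (ENSRNOG00000014096 and ENSRNOG00000048800) is on chromosome 18, Nr3c2 (ENSRNOG00000034007) and Hsd11b2 (ENSRNOG00000017084) on chromosome 19 and Hsd11b1 (ENSRNOG00000005861) on chromosome 13 of the Ensembl rat genome rat_ensembl_v6.

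Lungs came from male Sprague Dawley rats of 8 weeks and 180 to 220 g, with 3 rats in each of 10 groups. SAP rats had severe acute pancreatitis, raised with 5.0% sodium taurocholate run backwards into the biliopancreatic duct at 0.1 mL per 100 g, a model in which lung injury follows. Con rats had saline by the same route, and Sham rats had the pancreas turned at surgery with no infusion. DEX rats were SAP rats given dexamethasone (DEX), a synthetic glucocorticoid, into a vein at 10 mg/kg, and Emo rats were SAP rats given emodin, a plant anthraquinone, into the stomach. The emodin dose is 10 mg/kg in the sample descriptions and 40 mg/kg in the protocol. Both drugs were scheduled at 2 h and 12 h after the operation, so lungs taken at 6 h had seen 1 dose and lungs taken at 24 h had seen 2. All groups were fasted and given pentobarbital, and each was given the vehicle of any drug it did not receive. The rats within a group were separate animals.

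Glucocorticoids act through the receptor encoded by Nr3c1, which waits in the cytoplasm on heat shock protein chaperones and moves to the nucleus once steroid is bound. The mineralocorticoid receptor encoded by Nr3c2 binds aldosterone and also corticosterone, the main glucocorticoid of rats. 11β-HSD1 (Hsd11b1) turns the inactive 11-keto steroids cortisone and 11-dehydrocorticosterone into cortisol and corticosterone with NADPH made by H6pd in the endoplasmic reticulum, while 11β-HSD2 (Hsd11b2) does the reverse and is best known for shielding the mineralocorticoid receptor in kidney tubules. In the lung Hsd11b1 is known from fibroblasts, where C/EBP factors act on its promoter.

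Libraries held 16813949 to 34692306 reads on genes. In the study's mapping summary every Sham and Con library had a higher share of uniquely mapped reads than any SAP, DEX or Emo library. A library difference therefore cannot be told apart from pancreatitis where SAP, DEX or Emo is compared with Sham or Con. At 24 h every DEX and Emo library also had a higher share than any SAP library. The part of mapping in the results was not tested. The tissue label was borne out by lung markers: all 8 alveolar type 2 genes and all 6 alveolar type 1 genes listed were detected in every library, and Sftpc (surfactant protein C) lay between 12700 and 30200 FPKM. One library stood apart. In SAP-24h rat 1 the chaperones Stip1 and Fkbp4 were at 232.41 and 233.54 FPKM, against 38.71 and 67.66 (Stip1) and 45.07 and 73.84 (Fkbp4) in the other SAP-24h rats. The same lung had the lowest Hsd11b1 and Nr3c2 levels of all 30, so results of SAP-24h are also given without it where that ended a call or moved a value by over 1.5 times. Leaving it out lowered the number of genes called in all, from 1979 to 870 in SAP-24h vs Sham-24h, from 1229 to 797 in DEX-24h vs SAP-24h and from 1368 to 625 in Emo-24h vs SAP-24h, so a call lost without it does not by itself show that a change rested on it. In lung tissue taken whole, fewer cells of a type and less RNA per cell cannot be told apart.

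Nr3c1, the member with the most calls, is shown with its promoters and was the only member for which windows were matched. RefSeq (build GRCr8, which is not the build of the files) gave 2 windows for Nr3c1 on the minus strand, each of 300 bases around a transcription start, at chr18:31614170-31614469 and chr18:31613390-31613689. Capitals mark GGGCGG on either strand (GC box).
Nr3c1 promoter, upstream window: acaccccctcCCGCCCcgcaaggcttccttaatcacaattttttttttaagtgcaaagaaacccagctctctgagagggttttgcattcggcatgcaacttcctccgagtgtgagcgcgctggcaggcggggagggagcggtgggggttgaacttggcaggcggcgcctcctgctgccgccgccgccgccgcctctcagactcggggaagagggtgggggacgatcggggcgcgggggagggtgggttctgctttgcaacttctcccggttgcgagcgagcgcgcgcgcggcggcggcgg
Nr3c1 promoter, downstream window: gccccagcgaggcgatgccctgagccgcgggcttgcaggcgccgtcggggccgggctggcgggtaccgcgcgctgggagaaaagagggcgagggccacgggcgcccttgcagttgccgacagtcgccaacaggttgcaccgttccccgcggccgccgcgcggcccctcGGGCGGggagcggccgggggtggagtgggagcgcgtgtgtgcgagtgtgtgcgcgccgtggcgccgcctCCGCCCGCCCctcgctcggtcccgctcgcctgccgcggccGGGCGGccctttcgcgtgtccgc
The windows held 66.0% and 79.0% G and C, against a median of 51.7% over 33469 rat windows of 300 bases. GGGCGG occurred 1 time in the first and 4 times in the second, of which 2 overlap in the longest run of capitals, and 33.1% of all windows held it. TATAAA, in 14.2% of all windows, and TGTTCT, the half-site of glucocorticoid response elements, in 20.7%, were searched on both strands and these letters were in neither window. No window was matched for Nr3c2, Hsd11b1 or Hsd11b2.

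The 4 genes sat at very different levels. FPKM (reads scaled to gene length and to the mapped reads of the library) allows levels of genes to be compared. It carries no scaling for library composition, so the fold changes given below, fitted to scaled counts, differ somewhat from ratios of FPKM means. Hsd11b1 was the most abundant, with a mean of 36.9 FPKM over all 30 lungs and a range of 14.8 to 56.23, above 91.6% of the genes listed. Nr3c1 had a mean of 13.5 FPKM and a range of 8.01 to 22.25. Its second row had a mean of 2.8 FPKM and took 2.96% to 6.82% of the reads of both rows. Nr3c2, with a mean of 0.609 FPKM, and Hsd11b2, with a mean of 0.349 FPKM, were low: they rested on 18 to 107 and on 6 to 57 reads per lung. The rats of a group spread by a median coefficient of variation of 10.5% for Nr3c1, 17.9% for Hsd11b1, 25.8% for Nr3c2 and 30.5% for Hsd11b2.

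**Figure D1:**
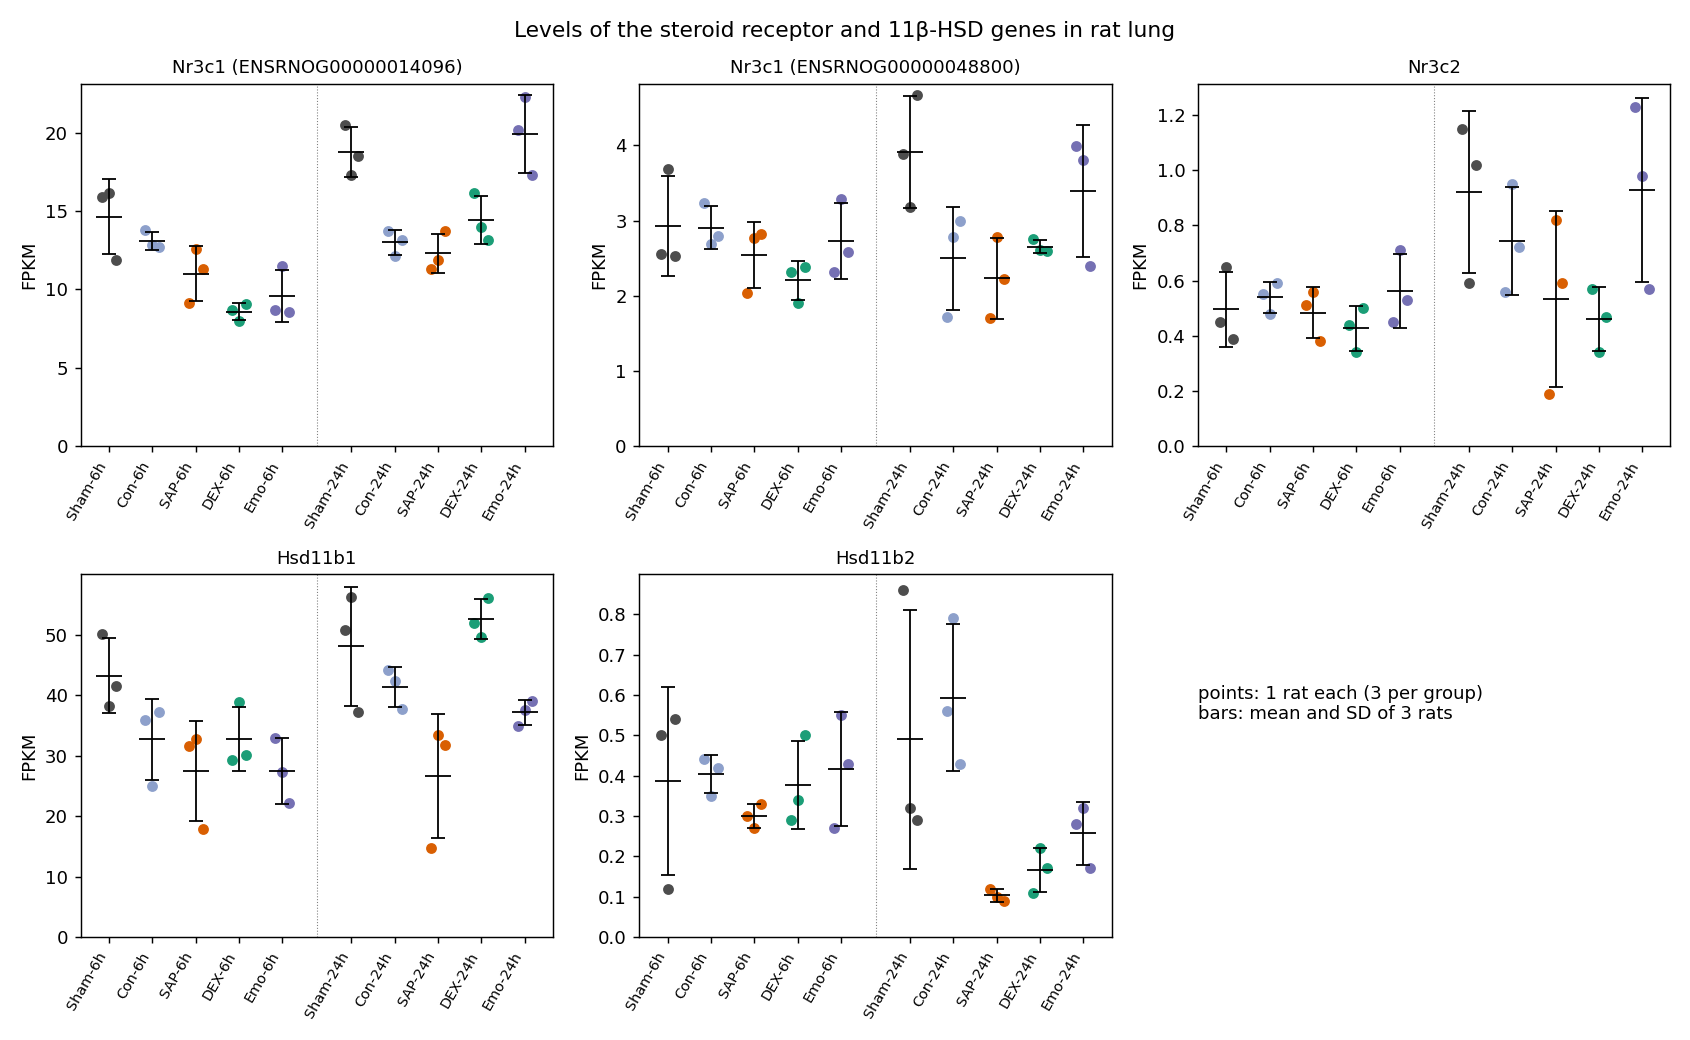
FPKM of the 5 rows (y axes, linear from 0) in the 10 groups (x axes, 6 h left and 24 h right of the dotted line), with a point for each rat and bars for the mean and SD of 3 rats. Nr3c1 is highest in Sham-24h and Emo-24h, Hsd11b1 in DEX-24h and Sham-24h, and Hsd11b2 is lowest in SAP-24h, between 0.09 and 0.12 FPKM.

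Group means of Nr3c1 ran from 19.9 ± 2.48 FPKM (SD, n = 3) in Emo-24h through 18.8 ± 1.60 in Sham-24h, 14.6 ± 2.39 in Sham-6h, 14.4 ± 1.55 in DEX-24h, 13.1 ± 0.576 in Con-6h, 13 ± 0.811 in Con-24h, 12.3 ± 1.26 in SAP-24h, 11 ± 1.73 in SAP-6h and 9.58 ± 1.65 in Emo-6h to 8.58 ± 0.524 in DEX-6h. Of the 9 steps between neighbours in that order, 1 was larger than the SD of both groups, namely that from Sham-24h to Sham-6h. Emo-24h and Sham-24h thus formed the upper pair, and the 8 other groups formed a slope without gaps.

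The first comparison asks what pancreatitis did to these genes in the lung. At 24 h the glucocorticoid receptor gene fell against Sham-24h, with no call against Con-24h, and the inactivating enzyme gene fell against both. Nr3c1 was at 20.45, 17.28 and 18.53 FPKM in the Sham-24h rats and at 11.3, 11.88 and 13.71 in the SAP-24h rats. Every SAP-24h lung was below every Sham-24h lung. In FPKM 29.4% of the rows tested did not overlap between these groups, in either direction, and with 3 rats against 3 an exact permutation test of such a separation gives p = 0.1. In the edgeR fit across all genes Nr3c1 in SAP-24h was 71.6% of Sham-24h (log2 fold change -0.48, SE 0.12, adjusted p = 0.0135). Its second row fell to 62.2% (-0.685, SE 0.22, adjusted p = 0.0453), from 3.18 to 4.67 FPKM in Sham-24h to 1.7 to 2.78 in SAP-24h, a call lost in 5 of the 6 fits that left out 1 library (adjusted p up to 0.183). With the reads of both rows summed the change was -0.49 (adjusted p = 0.0115). Against Con-24h, at 13.73, 12.13 and 13.16 FPKM, Nr3c1 in SAP-24h differed by 0.042 (103%, 95% interval -0.21 to 0.29, adjusted p = 0.845), with overlapping groups.

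Hsd11b2 was at 0.86, 0.32 and 0.29 FPKM in Sham-24h, from 57, 20 and 19 reads, and at 0.12, 0.10 and 0.09 in SAP-24h, from 8, 7 and 6 reads. The groups did not overlap, and Sham-24h rat 1 stood well above the other Sham-24h rats. SAP-24h was 23.9% of Sham-24h (-2.06, SE 0.485, 95% interval -3.06 to -1.06, adjusted p = 0.00906). Without Sham-24h rat 1 the change was -1.39 and did not pass (adjusted p = 0.0809). Against Con-24h, whose rats were at 0.56, 0.79 and 0.43 FPKM, the fall to 19.6% passed (-2.35, SE 0.486, adjusted p = 0.00217) and passed whichever library was left out, with adjusted p from 0.0018 to 0.0176.

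Hsd11b1 was at 50.73, 56.23 and 37.24 FPKM in Sham-24h and at 14.8, 33.42 and 31.71 in SAP-24h. These groups did not overlap either, but the change of -0.74 (SE 0.247, 95% interval -1.25 to -0.23) stopped just short of the threshold (edgeR adjusted p = 0.0504). DESeq2 gave -0.71 with an adjusted p of 0.0312, and without SAP-24h rat 1 the edgeR value was -0.47. Nr3c2 was at 1.15, 0.59 and 1.02 FPKM in Sham-24h and at 0.19, 0.82 and 0.59 in SAP-24h, groups that overlap (-0.67, SE 0.356, adjusted p = 0.219, and -0.29 without SAP-24h rat 1). In all, 3 of the 5 rows passed, all of them lower in SAP-24h, where 12.4% of the genes tested were called.

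These calls at 24 h depend on how the spread was estimated. When only the 6 libraries of SAP-24h and Sham-24h were fitted, the changes of Nr3c1 (-0.47, adjusted p = 0.101), its second row (-0.68, adjusted p = 0.193) and Hsd11b2 (-2.05, adjusted p = 0.118) kept their size and missed the threshold, in a fit that called 3 genes in all. Nr3c1 also missed it without SAP-24h rat 1 (-0.46, adjusted p = 0.0516) or Sham-24h rat 1 (-0.41, adjusted p = 0.0662).

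Cell type markers were followed in the same comparison, where 12.4% of all genes were called, or 870 of 16139 rows without SAP-24h rat 1. The 7 T cell genes summed to 54.8 to 81.6 FPKM in Sham-24h and 17.6 to 20.7 in SAP-24h, and 4 of them fell, or 1 without SAP-24h rat 1. The 7 fibroblast genes summed to 480 to 616 and 254 to 355 FPKM, and 3 fell while 1 rose, or 1 and 0 without that lung. The 6 smooth muscle and pericyte genes summed to 493 to 722 and 266 to 420 FPKM, and 1 fell without that lung. The 7 neutrophil genes, led by S100a8 and S100a9, summed to 198 to 9240 and 4430 to 16300 FPKM, ranges that overlap. Of them 0 were called without that lung, with a median log2 fold change of 1.635. The part of these shifts in the member results was not tested. Kidney tubule markers were near 0: their 5 matched genes summed to at most 0.31 FPKM in Sham-24h, and Aqp2 and Slc34a1 were at 0 in 24 and 23 of the 30 libraries.

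At 6 h the same comparison gave smaller changes. Nr3c1 was at 15.87, 16.17 and 11.89 FPKM in Sham-6h and 9.16, 12.58 and 11.29 in SAP-6h (-0.365, SE 0.121, adjusted p = 0.172). Hsd11b1 was at 50.1, 38.16 and 41.53 FPKM in Sham-6h and 31.61, 32.75 and 17.88 in SAP-6h, without overlap, as for 15.3% of rows (-0.61, SE 0.247, adjusted p = 0.276, and -0.375 without SAP-6h rat 3, the shallowest library). Hsd11b2 differed by -0.32 (SE 0.455, and -0.745 to -0.013 with 1 library left out) and Nr3c2 by 0.02 (SE 0.365). With edgeR 0 of 5 rows passed, 2 had an unadjusted p under 0.05 and 0 passed with DESeq2, while 0.27% of all genes were called. The SAP effect at 24 h minus that at 6 h, tested as an interaction, was called for 0 of 5 rows and for 0.0314% of genes (1 row at an unadjusted p under 0.05, and 0 with DESeq2). That row was Hsd11b2, at -1.74 (SE 0.663, adjusted p = 0.275), and at -1.06 without Sham-24h rat 1.

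The second comparison asks what the synthetic glucocorticoid did in SAP rats. DEX raised Hsd11b1 at 24 h. DEX-24h lungs were at 52.0, 49.66 and 56.13 FPKM, all above the 14.8, 33.42 and 31.71 of SAP-24h, and DEX-24h was the group with the highest mean (52.6 ± 3.28 FPKM). Of all rows 25.0% did not overlap between these groups. The ratio was 188% of SAP-24h (log2 fold change 0.91, SE 0.248, 95% interval 0.40 to 1.42, edgeR adjusted p = 0.026). Hsd11b1 was the 1 row of 5 that passed, where 7.71% of genes were called. Without SAP-24h rat 1 the change was 0.65 (adjusted p = 0.124), without 1 DEX-24h rat it was 0.87 to 0.94 (adjusted p from 0.0535 to 0.076), and with only these 6 libraries it was 0.92 (adjusted p = 0.146). Fibroblast genes summed to 247 to 333 FPKM in DEX-24h, a range that overlaps SAP-24h, smooth muscle and pericyte genes to 454 to 597, and the 7 adipocyte genes to 166 to 201 against 93.3 to 221 in SAP-24h. Neutrophil genes summed to 1010 to 2970 FPKM, below every SAP-24h lung. So did B cell genes (5.97 to 12.8 against 21.9 to 36.9 in SAP-24h) and T cell genes (10.7 to 16.6 against 17.6 to 20.7). Without SAP-24h rat 1, 2 of 6 B cell genes and 1 of 7 fibroblast genes fell and 1 of 6 smooth muscle and pericyte genes rose. The T cell, neutrophil and adipocyte lists had 0 calls in that fit, where 797 of 16139 rows were called. The part of these lists in the Hsd11b1 result was not tested.

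The receptors did not pass in DEX-24h vs SAP-24h. Nr3c1 was at 16.15, 13.98 and 13.14 FPKM in DEX-24h, a difference of 0.14 with a 95% interval of -0.11 to 0.39 (0.076 to 0.216 with 1 library left out). Nr3c2 was at 0.57, 0.34 and 0.47 FPKM (-0.29, 95% interval -1.03 to 0.46, and -0.66 without SAP-24h rat 1), and Hsd11b2 at 0.11, 0.22 and 0.17 FPKM, from 9, 14 and 11 reads (0.57, 95% interval -0.47 to 1.61, and 0.322 to 0.812 with 1 library left out). Against Sham-24h the differences were -1.49 for Hsd11b2 (SE 0.463, adjusted p = 0.0512), -0.96 for Nr3c2 (SE 0.358, adjusted p = 0.115) and -0.34 for Nr3c1 (SE 0.121, adjusted p = 0.0977), all without overlap between the groups, as for 26.1% of all rows. With edgeR 0 of 5 rows passed there, 4 had an unadjusted p under 0.05 and 1 passed with DESeq2 (Hsd11b2, adjusted p = 0.0371), where 6.97% of genes were called. The Hsd11b2 difference from Sham-24h was -0.82 without Sham-24h rat 1 (adjusted p = 0.434) and -1.74 at most when another library was left out. Hsd11b1 in DEX-24h was 112% of Sham-24h (0.17, SE 0.246, adjusted p = 0.797), and these groups overlapped.

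At 6 h DEX-6h had the lowest Nr3c1 mean of the 10 groups. Its rats were at 8.69, 8.01 and 9.04 FPKM, below every SAP-6h and every Sham-6h rat, comparisons in which 17.5% and 26.7% of all rows did not overlap. Against SAP-6h Nr3c1 differed by -0.36 (SE 0.122, adjusted p = 0.176), and 0 of 5 rows passed with edgeR or with DESeq2, with 1 at an unadjusted p under 0.05 and 0.979% of genes called. Against Sham-6h Nr3c1 fell to 60.5% (-0.725, SE 0.122, adjusted p = 7.75e-04), the 1 row of 5 called where 9.75% of genes were called, and it passed without any single library of the groups compared (adjusted p from 4.72e-04 to 0.00628). Hsd11b1 was at 29.29, 38.85 and 30.07 FPKM in DEX-6h and overlapped SAP-6h (0.25, SE 0.246, and 0.02 to 0.415 with 1 library left out). The DEX effect on Nr3c1 at 24 h minus that at 6 h was 0.50 (SE 0.172, adjusted p = 0.196). With edgeR 0 of 5 rows passed that interaction, 1 had an unadjusted p under 0.05, 0 passed with DESeq2 and 0.169% of genes were called.

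**Figure D2:**
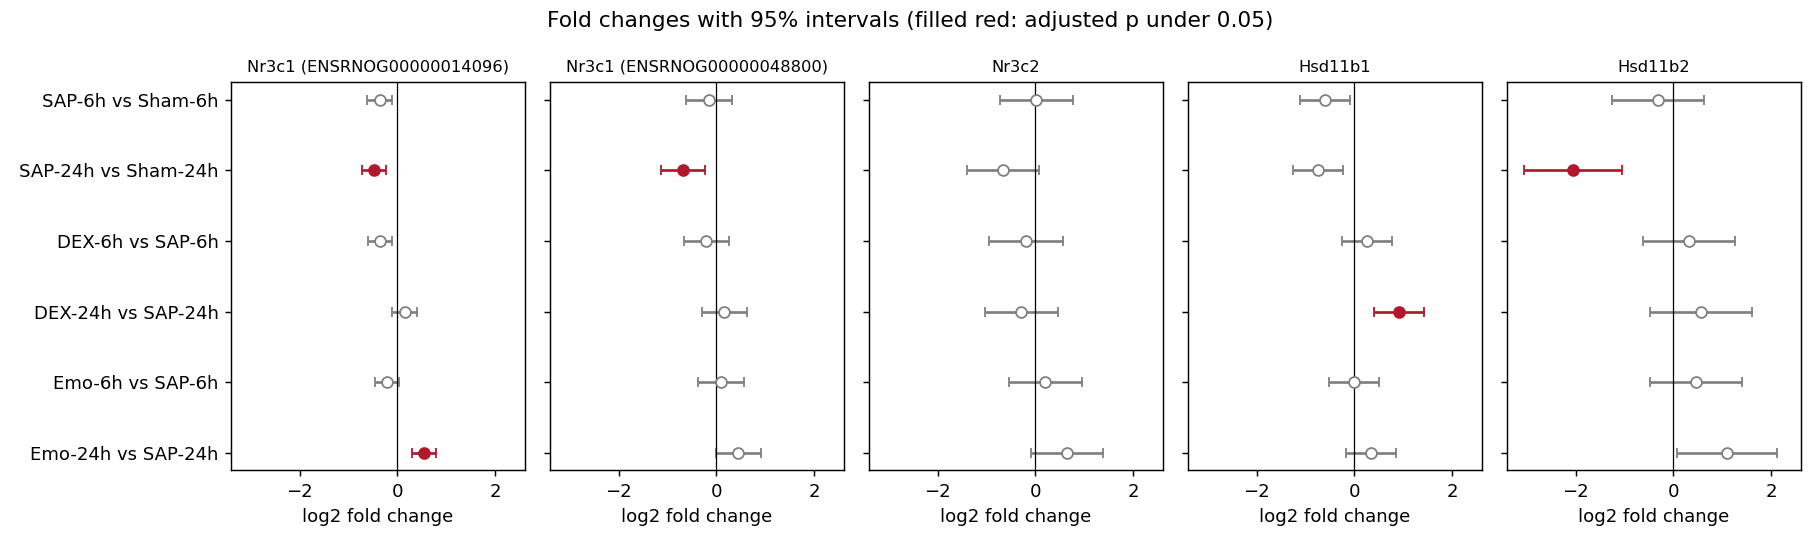
Log2 fold changes (x axes) of the 5 rows in the 6 main comparisons (y axis), with 95% intervals from the edgeR fit, filled red where the adjusted p is under 0.05 and open grey otherwise. Nr3c1 lies at -0.48 in SAP-24h vs Sham-24h and at 0.54 in Emo-24h vs SAP-24h, Hsd11b1 at 0.91 in DEX-24h vs SAP-24h, and intervals are widest for Hsd11b2.

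The third comparison asks what emodin did. Emodin raised Nr3c1 at 24 h. Emo-24h lungs were at 20.18, 22.25 and 17.32 FPKM, all above the 11.3, 11.88 and 13.71 of SAP-24h and overlapping the 17.28 to 20.45 of Sham-24h. Of all rows 29.3% did not overlap between Emo-24h and SAP-24h. Emo-24h was 145% of SAP-24h (0.54, SE 0.121, 95% interval 0.29 to 0.79, edgeR adjusted p = 0.0109). Nr3c1 was the 1 row of 5 called, where 8.59% of genes were called. Without Emo-24h rat 2 the change was 0.44 (adjusted p = 0.0766), without SAP-24h rat 1 it was 0.515 (adjusted p = 0.0403), and with only these 6 libraries it was 0.54 (adjusted p = 0.109), a fit that called 0 genes (2133 with DESeq2 over all groups). The second Nr3c1 row, at 3.99, 3.8 and 2.39 FPKM, differed by 0.445 (SE 0.223, adjusted p = 0.206).

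The other members were also higher in Emo-24h without passing. Hsd11b2 was at 0.28, 0.32 and 0.17 FPKM, from 16, 21 and 10 reads, each above every SAP-24h lung (1.10, SE 0.495, adjusted p = 0.157). Hsd11b1 was at 34.86, 37.6 and 39.0 FPKM, above SAP-24h in each rat (0.35, SE 0.246, adjusted p = 0.383), and the difference was 0.07 without SAP-24h rat 1. Nr3c2 was at 1.23, 0.98 and 0.57 FPKM and overlapped SAP-24h (0.65, SE 0.356, adjusted p = 0.249), with 0.26 without SAP-24h rat 1 and 1.07 without SAP-24h rat 2. T cell genes summed to 22.3 to 80.2 FPKM, fibroblast genes to 341 to 578 and neutrophil genes to 4260 to 6590 in Emo-24h. Without SAP-24h rat 1 these 3 lists had 0 calls in Emo-24h vs SAP-24h, with median log2 fold changes of 1.593, 0.506 and -1.109. Of the 8 alveolar type 2 genes 3 fell there (median -0.52), where 625 of 16139 rows were called. The part of cell type markers in the Nr3c1 result was not tested.

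Against Sham-24h, 0 of 5 rows and 0% of genes passed in Emo-24h with edgeR (1 row and 478 genes at an unadjusted p under 0.05, and 0 rows and 0 genes with DESeq2). The row was Hsd11b2, at -0.96 (SE 0.451, adjusted p = 1), and at -0.31 without Sham-24h rat 1. The 2 drugs differed in Nr3c1: Emo-24h was 132% of DEX-24h (0.40, SE 0.121, adjusted p = 0.042), without overlap, as for 29.4% of rows, and was the 1 row of 5 called where 8.89% of genes were called. This call was lost without any 1 of 5 of the 6 libraries (adjusted p up to 0.241), with only these 2 groups fitted (adjusted p = 0.0856) and with no filter on low counts (0.37, adjusted p = 0.0907). In the same comparison Hsd11b1 was lower in every Emo-24h lung (-0.56, SE 0.247, adjusted p = 0.175, and 0.0201 with only these 2 groups fitted) and Nr3c2 differed by 0.935 (SE 0.359, adjusted p = 0.112).

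At 6 h emodin lungs were not raised in Nr3c1. Emo-6h rats were at 8.67, 11.49 and 8.59 FPKM, overlapping SAP-6h (-0.21, SE 0.121, adjusted p = 0.452, and -0.33 to -0.125 with 1 library left out) and below every Sham-6h rat (67.1%, log2 fold change -0.575, SE 0.122, adjusted p = 0.0156). The first of these comparisons called 0 of 5 rows, with 0 at an unadjusted p under 0.05, 0 with DESeq2 and 0.0314% of genes called by edgeR. The comparison with Sham-6h called 1 of 5, where 3.26% of genes were called, and lost it without any 1 of 4 libraries (adjusted p up to 0.0936) and with only these 2 groups fitted (-0.59, adjusted p = 0.226), where 0 genes were called (1329 with DESeq2 over all groups). Of all rows 21.3% did not overlap there. Hsd11b1 in Emo-6h was at 32.91, 27.33 and 22.16 FPKM, against SAP-6h a difference of -0.010 with a 95% interval of -0.52 to 0.50. Comparing Emo-6h with DEX-6h called 0 of 5 rows with edgeR or DESeq2, 0 at an unadjusted p under 0.05, and 2.88% of genes.

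Nr3c1 rose between 6 h and 24 h. Over the mean of the 5 treatments the 24 h level was 141% of the 6 h level (0.49, SE 0.054, adjusted p = 5.14e-07), as also for Nr3c2 (140%, SE 0.161, adjusted p = 0.0162) and Hsd11b1 (126%, SE 0.110, adjusted p = 0.0147). That made 3 of 5 rows, all upward, where 48.2% of genes were called in this comparison. The Nr3c2 rise missed the threshold with limma on log2(FPKM + 0.1) (0.355, adjusted p = 0.054). The second Nr3c1 row did not pass (0.146, SE 0.100, adjusted p = 0.235). Hsd11b2 went the other way without passing (-0.46, SE 0.205, adjusted p = 0.0657). Time after the operation and the number of drug doses cannot be told apart in DEX and Emo rats.

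The rise of Nr3c1 was not even over treatments. Emo-24h was 202% of Emo-6h (1.01, SE 0.122, adjusted p = 1.81e-05), 1 of 5 rows where 34.1% of genes were called. DEX-24h was 170% of DEX-6h (0.77, SE 0.122, adjusted p = 1.92e-04), and Hsd11b1 rose with it (162%, 0.695, SE 0.247, adjusted p = 0.0411), 2 of 5 rows where 25.9% of genes were called. The Hsd11b1 rise missed the threshold without any 1 of 5 of the 6 libraries (adjusted p up to 0.132). In Sham and SAP rats Nr3c1 differed by 0.38 (SE 0.121, adjusted p = 0.0911, and 0.23 to 0.44 with 1 library left out) and 0.26 (SE 0.121, adjusted p = 0.183). In each of these 2 comparisons 0 of 5 rows passed with edgeR and with DESeq2, 2 had an unadjusted p under 0.05, and 0.992% and 6.01% of genes were called. In Con rats Nr3c1 differed by 0.037 (103%, 95% interval -0.21 to 0.29). They gave 0 of 5 rows, 0 at an unadjusted p under 0.05, 0 with DESeq2 and 0.0126% of genes called. Hsd11b2 was lower at 24 h in SAP (-1.39, SE 0.495, adjusted p = 0.0889) and DEX rats (-1.135, SE 0.464, adjusted p = 0.0744). The second Nr3c1 row differed by 0.264 in Emo, 0.285 in DEX, 0.443 in Sham, -0.087 in SAP and -0.175 in Con rats, and passed in none of them.

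The emodin effect on Nr3c1 itself changed with time. The Emo vs SAP difference at 24 h minus that at 6 h was 0.75 (SE 0.172, adjusted p = 0.0267), the 1 row of 5 called where 3.57% of genes were called. It did not pass with only the 4 groups compared (0.74, adjusted p = 0.127) or without any 1 of 5 of their 12 libraries, namely Emo-24h rat 1 or 2, Emo-6h rat 1 or 3 or SAP-6h rat 2 (0.64 to 0.76, adjusted p from 0.0501 to 0.112).

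The 2 control groups were not alike in Nr3c1. The Con-24h rats, given above, were below every Sham-24h rat, as 28.9% of all rows were apart in one direction or the other, and overlapping SAP-24h. Sham-24h was 144% of Con-24h (0.52, SE 0.121, adjusted p = 0.012), 1 of 5 rows where 9.85% of genes were called, and the call was lost without Con-24h rat 2 (adjusted p = 0.0834) or Sham-24h rat 3 (adjusted p = 0.0542), and with only these 2 groups fitted (0.50, adjusted p = 0.0794), a fit that called 0 genes with edgeR against 2426 with DESeq2 and 4307 at an unadjusted p under 0.05 over all groups. With DESeq2 the second Nr3c1 row passed there too (0.623, adjusted p = 0.0389). SAP-24h vs Con-24h called 1 of 5 rows, Hsd11b2, where 22.1% of genes were called, and Hsd11b1 was lower there in each SAP-24h rat, where 32.1% of all rows did not overlap (-0.53, SE 0.247, adjusted p = 0.128). That difference was -0.27 without SAP-24h rat 1, and passed with limma on log2(FPKM + 1) (-0.695, adjusted p = 0.0443) or log2(FPKM + 0.1) (-0.72, adjusted p = 0.0428). At 6 h Sham-6h vs Con-6h called 0 of 5 rows and 0% of genes, and SAP-6h vs Con-6h 0 of 5 rows and 0.207% of genes, with 0 rows at an unadjusted p under 0.05 and 0 with DESeq2 in both (1372 and 1664 genes at an unadjusted p under 0.05, and 10 and 171 genes with DESeq2). The comparisons above share groups (SAP-24h stands in 3 of the 6 main ones), so their values are given side by side and not as independent results.

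The balance of activating to inactivating enzyme and of the 2 receptors was taken as a ratio of FPKM within each lung. Hsd11b1 exceeded Hsd11b2 by 48.8 to 433 times, with geometric means of 107 in Sham-24h, 222 in SAP-24h, 308 in DEX-24h and 144 in Emo-24h. At 6 h the geometric means were 130 in Sham-6h, 85.6 in SAP-6h, 86.2 in DEX-6h and 66.1 in Emo-6h. In the Con groups they were 78.3 at 6 h, below SAP-6h, and 70.5 at 24 h, below SAP-24h. Nr3c1 exceeded Nr3c2 by 12.6 to 56.5 times, both extremes coming from 24 h lungs. The 6 differences were tested with exact two-sided permutation tests within time points, in which the smallest p is 0.005. Each averaged the differences at 6 h and 24 h, and none passed. Emo vs SAP for Hsd11b1 : Hsd11b2 was -0.50 on the log2 scale (exact p = 0.18, adjusted p = 0.94 over 6 tests), and the others lay between -0.33 and 0.24. The value of -0.33, for Nr3c1 : Nr3c2 in Emo vs SAP, ran from -0.554 to -0.058 with 1 library left out. For SAP vs Sham the mean of 0.23 joined opposite differences in Hsd11b1 : Hsd11b2, -0.60 at 6 h and 1.05 at 24 h, which were not tested singly. That mean ran from 0.007 to 0.521 with 1 library left out.

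**Figure D3:**
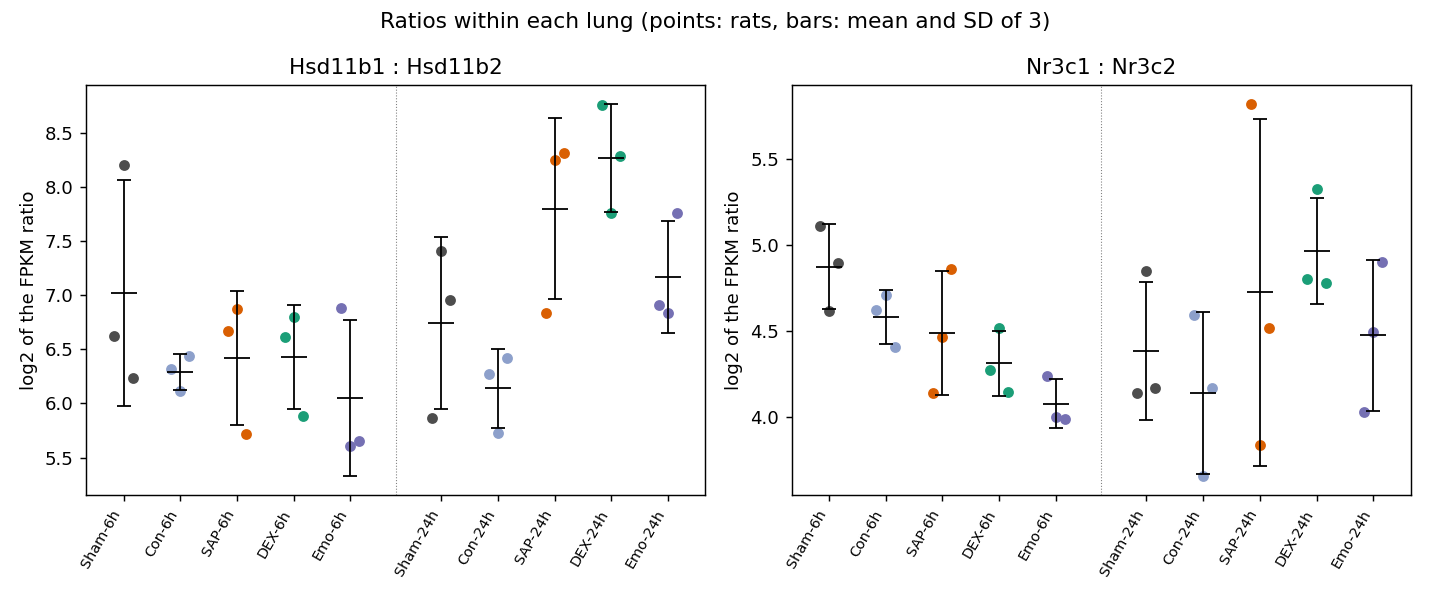
Log2 of the FPKM ratio within each lung (y axes) in the 10 groups (x axes), with a point for each rat and bars for the mean and SD of 3 rats. Hsd11b1 : Hsd11b2 spans 48.8 to 433 on the linear scale with the highest mean in DEX-24h, and Nr3c1 : Nr3c2 spans 12.6 to 56.5 with SAP-24h rat 1 at the top.

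Genes that work beside the enzymes were followed next. H6pd, which makes the NADPH that 11β-HSD1 needs, was at 6.35 to 8.26 FPKM in SAP-6h and at 14.18, 9.55 and 14.02 in DEX-6h, without overlap, and rose there (0.82, SE 0.169, edgeR adjusted p = 0.0204). At 24 h it fell with emodin, from 8.3, 9.34 and 7.57 FPKM in SAP-24h to 5.55, 5.55 and 6.69 in Emo-24h (-0.655, SE 0.169, adjusted p = 0.0212). With SAP-24h rat 1 left out the difference was -0.63 and did not pass (adjusted p = 0.0643). Its neighbour in the same membrane, the glucose-6-phosphate carrier Slc37a4, moved by 0.13 in both DEX comparisons and did not pass. Serpina6 (corticosteroid-binding globulin) was listed at 0 in most lungs and reached at most 0.1 FPKM.

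Abcb1a, the P-glycoprotein pump that carries corticosteroids such as DEX out of cells, was at 3.23, 3.69 and 3.51 FPKM in SAP-24h and at 65.81, 32.54 and 47.54 in DEX-24h. It rose by 3.715 on the log2 scale (SE 0.488, adjusted p = 1.05e-04) and by 3.72 without SAP-24h rat 1. In the other 9 groups no lung exceeded 15.03 FPKM. The steroid-reducing enzymes Srd5a1 (-1.15, SE 0.247, adjusted p = 0.00521) and Akr1c14 (-1.035, adjusted p = 0.00753) fell in SAP-24h vs Sham-24h, and rose with emodin at 24 h (0.905, adjusted p = 0.0274, and 0.977, adjusted p = 0.0156). Leaving out SAP-24h rat 1, their falls passed (-1.001 and -0.934) and their differences with emodin did not (0.755, adjusted p = 0.113, and 0.874, adjusted p = 0.066). Akr1c14 fell in DEX-6h vs SAP-6h (-0.97, SE 0.236, adjusted p = 0.0471). Of the 6 genes of this list tested, 2 fell in SAP-24h vs Sham-24h, 1 rose in DEX-24h vs SAP-24h, and 2 rose and 1 fell in Emo-24h vs SAP-24h, where 12.4%, 7.71% and 8.59% of all genes were called. Without SAP-24h rat 1, 7 were tested, and the first 2 counts were as before while the last 2 were 0 and 0. The medians of the 6 genes were -0.45, 0.22 and 0.26, against -0.03, 0.00 and 0.01 over all genes. Over the 7 genes without that lung they were -0.87, 0.16 and -0.043. That fit also added Srd5a2 (-1.65, 1.925 and -0.91), so the change of the medians cannot be put down to the lung. Of 7 steroid synthesis genes 2 were tested, and Cyp21a1 (21-hydroxylase) fell in Emo-24h vs SAP-24h from 0.98, 0.19 and 0.25 FPKM to 0.07, 0.07 and 0.11 (-2.65, SE 0.802, adjusted p = 0.0425), and differed by -1.47 without SAP-24h rat 1 (adjusted p = 0.28).

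**Figure D4:**
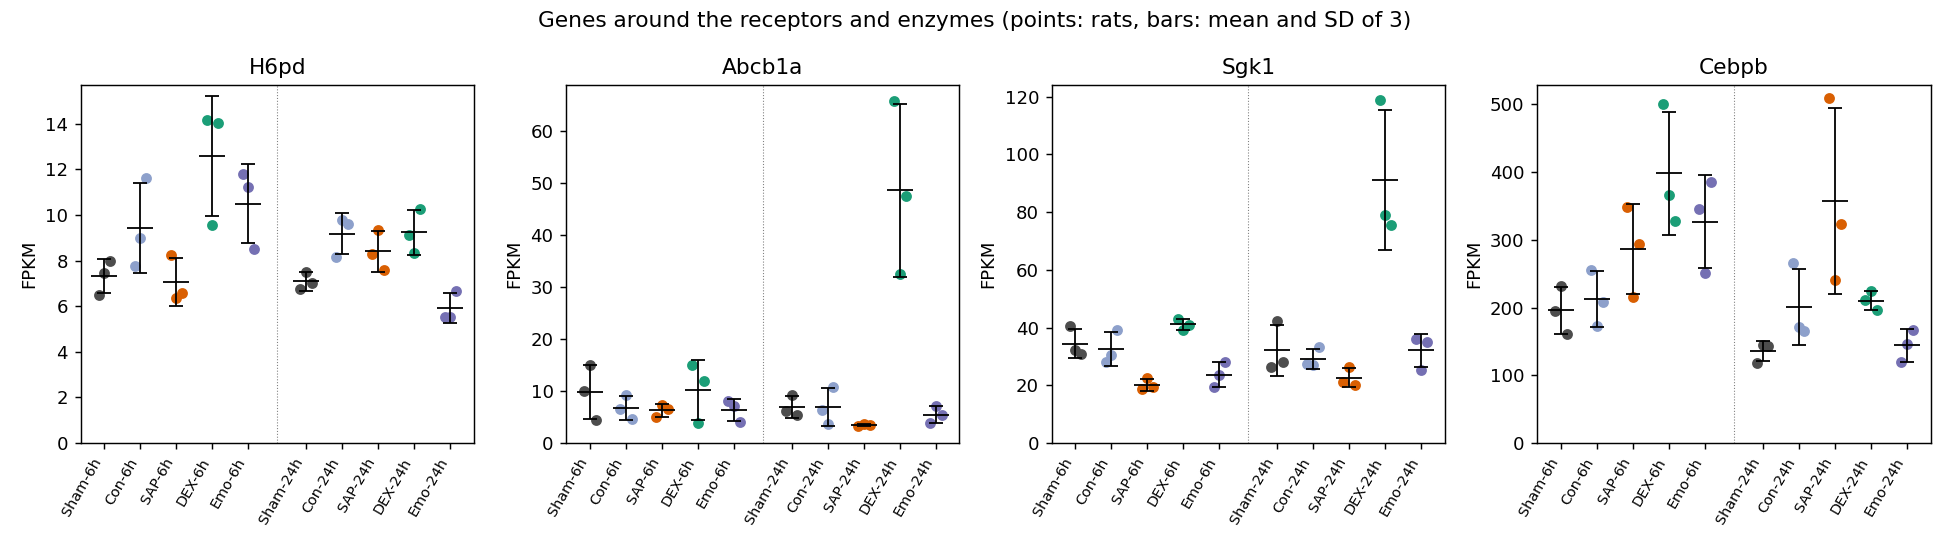
FPKM (y axes, linear from 0) of H6pd, Abcb1a, Sgk1 and Cebpb in the 10 groups (x axes), with a point for each rat and bars for the mean and SD of 3 rats. Abcb1a and Sgk1 are highest in DEX-24h, at 32.54 to 65.81 and 75.62 to 119.05 FPKM, H6pd is highest in DEX-6h, and Cebpb reaches 509.1 FPKM in SAP-24h rat 1.

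Of the 14 chaperones and cochaperones that handle the unbound receptor, 6 rose in SAP-24h vs Sham-24h, where 12.4% of all genes were called, a count that depended on 1 lung. Their median was 0.80, against -0.03 over all genes, with 12 above 0 and Stub1 (-0.35) and Ppp5c (-0.03) below. The calls included Dnajb1 (1.39, SE 0.273, adjusted p = 0.00305) and Fkbp4 (1.39, adjusted p = 0.0211), the immunophilin of the active receptor complex. In DEX-24h vs SAP-24h 5 fell (7.71% of all genes called), led by Stip1 (-1.59, SE 0.433, adjusted p = 0.0254), and in Emo-24h vs SAP-24h 5 fell (8.59% of all genes called), led by Dnajb1 (-1.08, SE 0.271, adjusted p = 0.0186). Without SAP-24h rat 1 the 3 counts were 1, 0 and 0, and the list's median in SAP-24h vs Sham-24h was 0.305. Dnajb1 passed there (1.09, adjusted p = 0.0229), Fkbp4 was at 0.32 and Stip1 at 0.57, against 1.74 with that lung, and Bag1, a cochaperone, was at 0.44 against 0.49. Hsp90aa1 ran from 0 to 86.92 FPKM between single lungs. Reads that map to more than 1 place were discarded and this family has close copies, so its level is uncertain. Of 15 receptor coregulators, 1 fell in SAP-24h vs Sham-24h, the corepressor Nrip1, from 3.27, 3.68 and 3.68 FPKM to 2.43, 2.71 and 2.49 (-0.35, SE 0.116, adjusted p = 0.0485). The difference was as large when SAP-24h rat 1 was left out (-0.36) and did not pass (adjusted p = 0.112).

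Of the 6 C/EBP factors, 2 rose in SAP-24h vs Sham-24h and 3 fell in Emo-24h vs SAP-24h, where 12.4% and 8.59% of all genes were called. The medians were 0.60 and -0.46, against -0.03 and 0.01 over all genes, and without SAP-24h rat 1 the counts were 2 and 2. Cebpb was at 118.38, 145.15 and 142.85 FPKM in Sham-24h, 509.1, 240.9 and 323.7 in SAP-24h and 119.24, 145.54 and 167.49 in Emo-24h. It rose by 1.55 (SE 0.281, adjusted p = 0.00203) and fell by 1.48 with emodin (SE 0.280, adjusted p = 0.00465). Without SAP-24h rat 1 the rise was 1.14 (adjusted p = 0.0156) and the fall -1.08 (adjusted p = 0.0278). Cebpd went the same way (2.13, adjusted p = 0.00355, and -2.04, adjusted p = 0.00706), and Cebpa, at 41.24 to 68.66 FPKM over all lungs, did not pass in these comparisons.

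Of 13 rows for 12 target genes of the glucocorticoid receptor, 1 rose against SAP with DEX at either time, where 0.979% (6 h) and 7.71% (24 h) of all genes were called. It was Sgk1, a kinase that both corticosteroid receptors switch on. Sgk1 was at 18.59, 22.65 and 19.37 FPKM in SAP-6h and 43.0, 39.31 and 40.98 in DEX-6h (1.02, SE 0.203, adjusted p = 0.0158). At 24 h it went from 21.28, 26.49 and 20.19 FPKM in SAP to 119.05, 79.01 and 75.62 in DEX (1.92, SE 0.208, adjusted p = 2.2e-05). The median of the 13 rows was 0.75 in DEX-6h vs SAP-6h and 0.49 in DEX-24h vs SAP-24h, against -0.02 and 0.00 over all genes. Fkbp5, the receptor's feedback immunophilin, was at 216.19, 167.28 and 207.67 FPKM in DEX-6h, above the 68.38 to 102.59 of SAP-6h, but did not pass (1.28, adjusted p = 0.176). The 2 rows of Tsc22d3 (GILZ) differed by 0.37 and 0.75 in DEX-6h vs SAP-6h without passing. Against Sham more rows rose: 7 of 13 in DEX-6h vs Sham-6h, among them Errfi1 (2.07, adjusted p = 7.88e-04), Fkbp5 (2.01, adjusted p = 0.00609) and Per1 (1.01, adjusted p = 0.0029), and 3 in DEX-24h vs Sham-24h, where 9.75% and 6.97% of all genes were called. Sgk1 was at 0.30 (adjusted p = 0.375) in the first and rose in the second (1.53, adjusted p = 1.47e-04). In Emo-24h vs SAP-24h 2 rows fell, where 8.59% of all genes were called, Errfi1 (-1.385, SE 0.343, adjusted p = 0.0179) and the clock gene Per1 (-0.71, adjusted p = 0.0302), with a median of -0.73 against 0.01 over all genes. Without SAP-24h rat 1 the differences were -1.23 (adjusted p = 0.0641) and -0.67 (adjusted p = 0.0855) and the median was -0.70.

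Of the sodium transport genes that aldosterone and glucocorticoids govern, Sgk1, given above, rose with DEX at both times. The channel subunits Scnn1a, Scnn1b and Scnn1g, which form the epithelial sodium channel, did not pass in the 6 main comparisons. Scnn1a was at 121.79 to 234.51 FPKM over all lungs.

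Among the 9 rows of the steroid receptor family (NR3), 3 fell in SAP-24h vs Sham-24h, namely both Nr3c1 rows and Esr1 (estrogen receptor alpha, at 0.02 to 0.32 FPKM over all lungs), with a median of -0.48 against -0.03 over all genes and 12.4% of all genes called. With that lung, SAP-24h rat 1, left out they were at -0.46, -0.55 and -1.565, none of which passed, and the median was -0.29. In Emo-24h vs SAP-24h, where 8.59% of all genes were called, 1 rose, Nr3c1, and it passed without that lung too. Pgr (progesterone receptor), at or below 0.08 FPKM, was not tested.

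The genes whose pattern over the 30 libraries was most like each member were found by Pearson correlation of log2 CPM (TMM-scaled counts) among tested genes with a mean of at least 1 FPKM. For Nr3c1 they were Dars (r = 0.934), Gulp1 (0.93) and Hps3 (0.928). For Hsd11b1 they were Etv1 (0.81), Snx24 (0.805) and Emcn (0.796), for Nr3c2 Rfx5 (0.769), Ptch1 (0.762) and Adcy9 (0.738), and for Hsd11b2 Hsd17b8 (0.819), Fmod (0.799) and Endov (0.795). Within the 15 lungs of 6 h alone the r of the Nr3c1 genes was 0.879 to 0.907, and within 24 h 0.853 to 0.885. The lowest within-time r was 0.449, for Nr3c2 and Ptch1 at 6 h. These are descriptions: the 3 rats of a group share a treatment, and 48.2% of genes were called between the times. Between members r was 0.526 for Nr3c1 and Nr3c2, 0.709 for Nr3c2 and the second Nr3c1 row, 0.428 for Nr3c1 and Hsd11b1 and -0.169 for Nr3c1 and Hsd11b2. For Nr3c1 and Hsd11b1 it was 0.322 within 6 h and 0.159 within 24 h. The genes above were picked for a high r, so their r cannot be set against that of members.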

How the data were processed

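Polyadenylated lung RNA of 30 rats was sequenced from directional libraries, and the authors aligned reads with TopHat2 to rat_ensembl_v6, kept uniquely mapped reads and deposited a table of read counts per gene and one of FPKM per gene. The counting program and its use of strand are not given in the sources used here, so overlapping antisense reads cannot be told apart. Counts as deposited were fitted with edgeR 4.0.16 (R 4.3.3) as 10 groups of 3 with TMM scaling (factors 0.888 to 1.098) and its quasi-likelihood test, after a filter on low counts (filterByExpr, minimum 10 reads, total 15), with Benjamini-Hochberg adjustment over 15934 rows in each of 25 comparisons. A call is an adjusted p under 0.05. Levels and ratios within a lung used FPKM, with 0.01 added for ratios. Alternatives were DESeq2 1.42.0, limma 3.58.1 on log2 FPKM, RLE scaling, other filters, only the groups compared, a 2-fold minimum, the replicate number as a block and leaving out each library. Named genes were the members, fixed genes beside them and, in each gene list, the genes called with the smallest p in each direction, with Bag1, Stub1, Ppp5c and the drug response of Srd5a1 named after their values were seen; some named genes are not reported here. On simulated counts for SAP-24h vs Sham-24h over 15934 genes, 6 of 67 genes changed 1.5-fold, 34 of 67 changed 2-fold and 52 of 66 changed 4-fold were called, with 8 unchanged genes. Far fewer genes were changed there than the 1979 called in the data, so these shares need not hold for the data. Members and lists were chosen with earlier results of these data known. Leaving SAP-24h rat 1 out of the lists and summing both Nr3c1 rows were chosen after the data were seen. Figures were drawn with matplotlib 3.10.9.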

Additional observations from a re-analysis of the deposited data

Results flagged for a closer look

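The Nr3c1 response to emodin differed between the times in a test of the difference itself. Emo-6h vs SAP-6h was -0.21 on the log2 scale and Emo-24h vs SAP-24h was 0.54, a difference of 0.749 (SE 0.172, edgeR adjusted p = 0.0267), with the lungs of Emo-24h all above those of SAP-24h and the 6 h groups overlapping. The call was lost with only the 4 groups compared (adjusted p = 0.127) and without any 1 of 5 of their 12 libraries (adjusted p up to 0.112).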

How the results depend on the processing

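Under DESeq2, RLE scaling, both limma pseudocounts, no filter on low counts and a mean of at least 1 FPKM (where Hsd11b2 and Nr3c2 are not tested), the calls of Nr3c1 in SAP-24h vs Sham-24h and Emo-24h vs SAP-24h, of Hsd11b2 in SAP-24h vs Sham-24h and of Hsd11b1 in DEX-24h vs SAP-24h remained where tested. Fitting only the groups compared ended all 4, at -0.474, 0.542, -2.051 and 0.916. The study's 2-fold minimum ended those of Nr3c1 (-0.481 and 0.54) and Hsd11b1 (0.91), among 14 calls ended in 60 results. The second Nr3c1 row in SAP-24h vs Sham-24h missed the threshold with RLE scaling (-0.656), no filter (-0.657), only the groups compared (-0.681) and the 2-fold minimum (-0.685). Hsd11b1 in SAP-24h vs Sham-24h passed with genes of at least 1 FPKM (-0.762), limma with 1 or 0.1 added (-0.89 and -0.917) and DESeq2 (-0.714). With limma Nr3c2 in SAP-6h vs Sham-6h turned to -0.011 and -0.022 and Hsd11b1 in Emo-6h vs SAP-6h to 0.033 and 0.035, and with 0.1 added to FPKM the Hsd11b1 : Hsd11b2 ratio in SAP vs Sham turned to -0.034. The cause of these shifts was not tested.

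With 1 library left out, the ranges were -0.534 to -0.412 for Nr3c1 and -0.842 to -0.505 for its second row in SAP-24h vs Sham-24h, -2.291 to -1.389 for Hsd11b2 and -0.916 to -0.471 for Hsd11b1 there, 0.652 to 1.097 for Hsd11b1 in DEX-24h vs SAP-24h and 0.44 to 0.592 for Nr3c1 in Emo-24h vs SAP-24h. Values near 0 turned sign: the second Nr3c1 row in SAP-6h vs Sham-6h (-0.26 to 0.032) and Emo-6h vs SAP-6h (-0.033 to 0.19), Nr3c2 in SAP-6h vs Sham-6h (-0.118 to 0.241) and DEX-24h vs SAP-24h (-0.657 to 0.155), Hsd11b1 in Emo-6h vs SAP-6h (-0.243 to 0.151), the Hsd11b1 : Hsd11b2 ratio in DEX vs SAP (-0.002 to 0.376), and the Nr3c1 : Nr3c2 ratio in SAP vs Sham (-0.297 to 0.198) and DEX vs SAP (-0.188 to 0.307). Deviations of same-numbered rats were correlated weakly at most (r over 0.1 in 6 of 18 pairs, from -0.246 to 0.21). The replicate block changed no call (Nr3c1 in SAP-24h vs Sham-24h -0.479, Hsd11b2 -2.041, Hsd11b1 in DEX-24h vs SAP-24h 0.908, Nr3c1 in Emo-24h vs SAP-24h 0.535). Reads limit Hsd11b2, at 6 to 57 per lung, and Nr3c2, at 18 to 107.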
